A study of Arabidopsis thaliana with 2 samples.

Results

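The genes studied were 10 Arabidopsis thaliana genes that carry nitrate into and through the root and reduce it to ammonium, measured in roots exposed to aluminium. They were the transporter genes NRT1.1, NRT2.1, NRT2.2, NRT1.5, NRT1.8 and NRT1.9, the transporter partner gene NRT3.1, the nitrate reductase genes NIA1 and NIA2 and the nitrite reductase gene NIR1. The members were chosen by locus, as every probe outside the control spots whose annotated gene was 1 of these 10. Each had 1 probe on both arrays, and all 10 were among the 19194 genes tested.

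The aluminium group consisted of roots of Col-0 seedlings exposed to 10 µM AlCl3 at pH 5.0 for 6 h. The control group consisted of roots of the same accession and age kept for 6 h at pH 5.0 with 0 µM AlCl3. All seedlings had grown for 10 days in hydroponics at pH 5.5, so both groups share the step to the lower pH. The sample records give, for both groups, MGRL nutrient solution at 2%, 200 µM CaCl2, 12 h of light and 23 °C. There were 2 biological replicates, each a 2-colour Agilent array on which an aluminium and a control RNA were hybridised together. On replicate 1 the dye of the aluminium RNA was Cy3, and on replicate 2 it was Cy5, so dye and replicate change together and cannot be told apart.

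Nitrate enters root cells through low-affinity and high-affinity transporters that move it together with protons. Part of it is loaded into the xylem for the shoot, and part is reduced in the root, first to nitrite by nitrate reductase in the cytosol and then to ammonium by nitrite reductase in the plastid. Most of these genes are induced by nitrate within hours, and their transcripts fall again when reduced nitrogen accumulates.

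The signal of each spot is a background-corrected and dye-normalized brightness in arbitrary units, which includes an added offset of 50 units and therefore understates ratios of dim spots. Each array was normalized by itself, so signals of different arrays are not on a common scale. Each ratio is the log2 of the aluminium signal divided by the control signal of the same array, given as the mean ± SD of both arrays (n = 2). Tests were made with limma, the p-values were adjusted over all 19194 genes by the Benjamini-Hochberg method, and a gene was called at an adjusted p under 0.05. The median spot was 4.60 to 8.62 times as bright as its local background over the 4 channels, and 94.4% to 96.4% of probes were well above background. Of the 10 members, 9 were well above background in all 4 channels and none was saturated. Most markers of root layers were well above background in every channel. They included all 5 for epidermis and root hairs, all 4 for the endodermis and all 10 on the array for the stele. Both root cap markers on the array also passed, but only 1 of 2 cortex markers did. Of the green shoot markers 7 of 8 passed as well. As most probes passed, this mark does not by itself separate root from shoot or the layers from each other. In total RNA of whole roots, fewer cells of a type and less RNA per cell cannot be told apart.

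NRT2.1 (AT1G08090) and NRT2.2 (AT1G08100), which encode high-affinity nitrate transporters, rose in aluminium-treated roots. NRT2.1, the main high-affinity uptake system of the root, had a signal of 33400 in aluminium and 14600 in control RNA on replicate 1, and 24600 in aluminium and 17600 in control RNA on replicate 2. Aluminium lay above control within each array. The log2 ratio was 0.84 ± 0.50, or 1.79-fold (95% interval 0.37 to 1.31, limma adjusted p = 0.0434), with 1.20 on replicate 1 and 0.48 on replicate 2. The call was near the threshold and held in 5 of the 10 processing settings tried, the main setting included. Over all 10 the ratio ranged from 0.64 to 0.89. Some settings that kept the call changed only which dim probes were tested and left the ratio as it was. The counts of settings given below for other genes were made in the same way.

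NRT2.2, the neighbouring paralogue with a smaller part in uptake, had a signal of 212 in aluminium and 91.2 in control RNA on replicate 1, and 627 in aluminium and 122 in control RNA on replicate 2. Aluminium was again above control within each array, and replicate 2 had the larger ratio. The log2 ratio was 1.79 ± 0.81, or 3.45-fold (limma adjusted p = 0.0179), and NRT2.2 ranked 124 of 19194 genes from the highest mean ratio. It was called in 8 of 10 settings, and not with the scanner software's ratios (2.69, adjusted p = 0.0627) or the series matrix values (3.12, adjusted p = 0.0973), where its ratio was over 1.5 times as large. The control spots of NRT2.2 were 1.95 and 2.42 times their local background before correction, so the size of the ratio rests on how background is treated.

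The genes of this pair lie next to each other, with 0 genes between them in RefSeq's TAIR10.1 gene table. Per the annotation column of the replicate 1 file, which names no genome build, the probe of NRT2.1 covers chromosome 1 from 2525737 to 2525796 and that of NRT2.2 from 2527348 to 2527407, in the opposite order. Each probe is 60 bases long, and 1551 bases separate them. The paralogues have similar coding sequences, and whether either probe also binds the other transcript was not tested.

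NRT3.1 (AT5G50200, WR3 in RefSeq) encodes the small membrane partner that NRT2.1 needs for activity, and it was not called. Its signal was 8530 in aluminium and 7450 in control RNA on replicate 1, and 8000 in aluminium and 11600 in control RNA on replicate 2. The ratios had opposite signs, 0.20 on replicate 1 and -0.54 on replicate 2. The mean was -0.17 ± 0.52 (95% interval -0.65 to 0.31, limma adjusted p = 0.609).

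NRT1.1 (AT1G12110), the dual-affinity transporter that also acts as the root's nitrate sensor, was lower in aluminium RNA on both arrays but did not pass. Its signal was 9860 in aluminium and 13200 in control RNA on replicate 1, and 5320 in aluminium and 16100 in control RNA on replicate 2. Within each array the aluminium value was below the control value. The log2 ratio was -1.01 ± 0.84, or 2.01-fold lower (95% interval -1.72 to -0.29, limma adjusted p = 0.0769). On replicate 2 its ratio of -1.60 ranked 77 of all genes from the lowest, whereas on replicate 1 it was -0.42.

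Of the 3 genes for nitrate movement in the vasculature, NRT1.9 fell and the others were not called. NRT1.9 (AT1G18880), which acts in phloem companion cells of the root, had a signal of 1800 in aluminium and 2360 in control RNA on replicate 1, and 1160 in aluminium and 1890 in control RNA on replicate 2. Within each array aluminium was below control. The log2 ratio was -0.54 ± 0.22, or 1.46-fold lower (limma adjusted p = 0.0399). The call held in 6 of 10 settings, with ratios between -0.59 and -0.51.

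NRT1.5 (AT1G32450) loads nitrate into the xylem, and NRT1.8 (AT4G21680) takes it back out of the xylem sap. Several stresses are known to lower NRT1.5 and raise NRT1.8. Here NRT1.5 had a signal of 6550 in aluminium and 5840 in control RNA on replicate 1, and 1730 in aluminium and 2860 in control RNA on replicate 2. Its ratios of 0.17 and -0.72 had opposite signs, and the mean was -0.28 ± 0.63 (95% interval -0.84 to 0.28, limma adjusted p = 0.462). NRT1.8 was dim, with 84.3 in aluminium and 71.0 in control RNA on replicate 1, and 99.0 in aluminium and 94.6 in control RNA on replicate 2. On replicate 1 its control spot was not well above background, so the control level was measured on 1 of 2 arrays. The ratio was 0.16 ± 0.13 (95% interval -0.10 to 0.41, limma adjusted p = 0.368), with 0.25 on replicate 1 and 0.07 on replicate 2. Over the settings that gave it a value, the ratio ranged from 0.13 to 0.62 without being called, with opposite signs on the arrays in 2 of them. Neither direction known from other stresses passed the test for these genes at this precision.

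**Figure D1:**
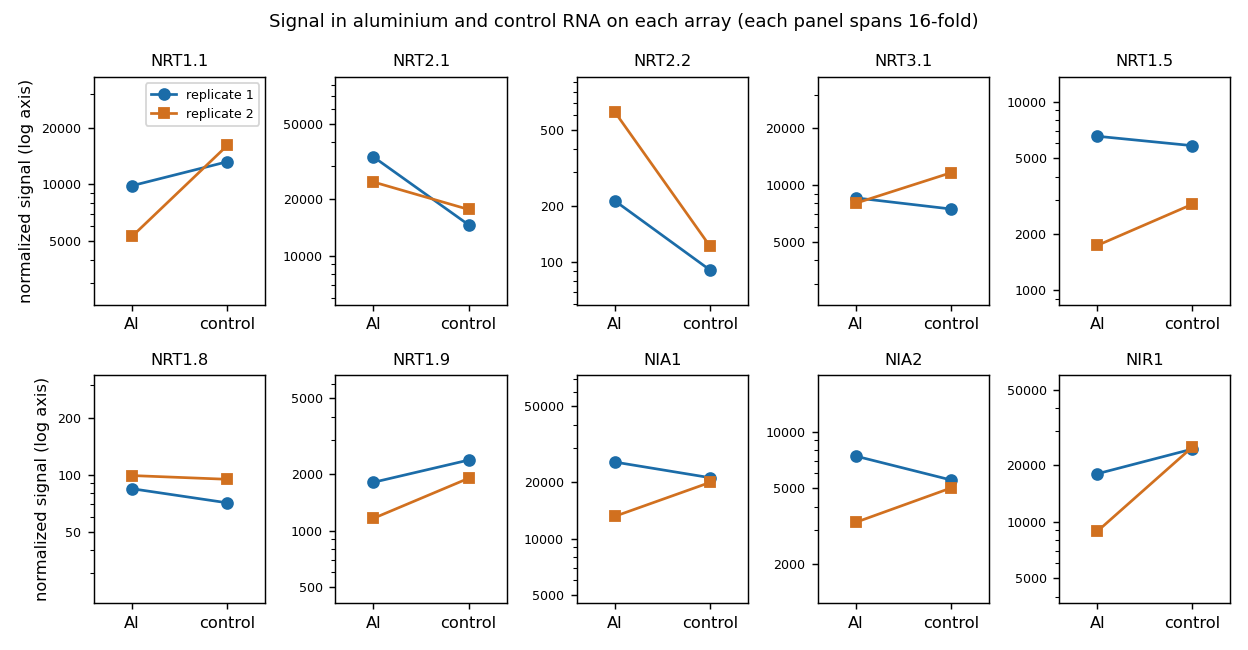
Normalized signal (log axis, arbitrary units, each panel spanning the same fold range) of the 10 nitrate genes in aluminium (Al) and control RNA, with 1 line per array. Aluminium lies above control on both arrays for NRT2.1, NRT2.2 and, by little, NRT1.8, below it on both for NRT1.1, NRT1.9 and NIR1, and on opposite sides for NRT3.1, NRT1.5, NIA1 and NIA2.

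Among the reduction genes, neither nitrate reductase gene was called. NIA1 (AT1G77760) had a signal of 25400 in aluminium and 21000 in control RNA on replicate 1, and 13100 in aluminium and 19800 in control RNA on replicate 2. NIA2 (AT1G37130), which provides most of the nitrate reductase activity of the plant, had 7410 in aluminium and 5540 in control RNA on replicate 1, and 3310 in aluminium and 5030 in control RNA on replicate 2. Both genes were thus higher in aluminium RNA on replicate 1 and lower on replicate 2. The log2 ratio of NIA1 was -0.16 ± 0.61 (95% interval -0.71 to 0.39, limma adjusted p = 0.679). That of NIA2 was -0.09 ± 0.72 (95% interval -0.72 to 0.54, limma adjusted p = 0.851).

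NIR1 (AT2G15620), the nitrite reductase gene, was lower in aluminium RNA on both arrays without passing the test. Its signal was 17900 in aluminium and 24200 in control RNA on replicate 1, and 8870 in aluminium and 24800 in control RNA on replicate 2. Aluminium was thus below control within each array. The log2 ratio was -0.96 ± 0.74, or 1.94-fold lower (95% interval -1.60 to -0.31, limma adjusted p = 0.0686). On each array NIR1 lay near NRT1.1, with -0.43 for NIR1 on replicate 1 and -1.48 on replicate 2.

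**Figure D2:**
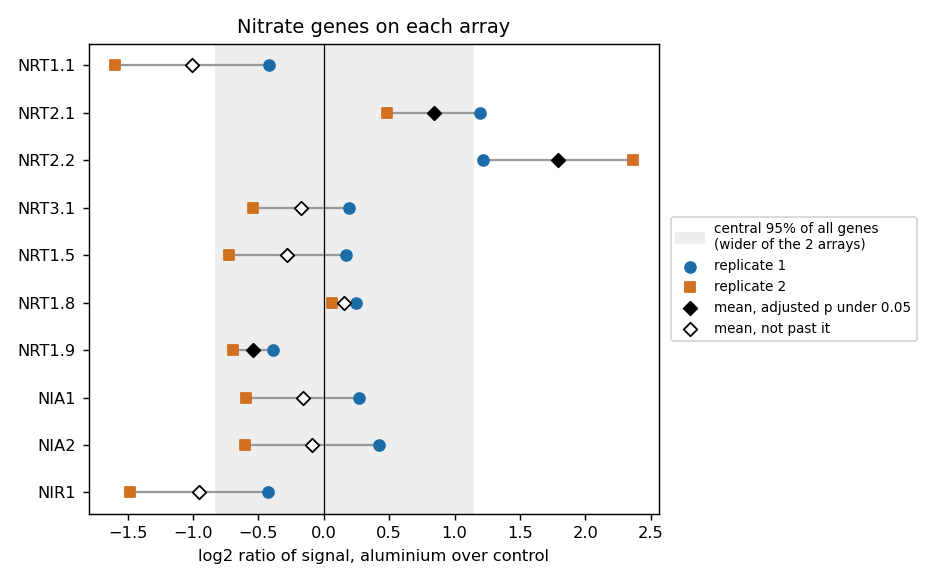
Log2 ratio of aluminium over control for each nitrate gene on replicate 1 (circles) and replicate 2 (squares), with the mean of the arrays (diamonds, filled at an adjusted p under 0.05). The grey band holds the central 95% of all genes, taken from the wider of the arrays. NRT2.1, NRT2.2 and NRT1.8 lie to the right of 0 and NRT1.1, NRT1.9 and NIR1 to the left on both arrays.

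In all, 2 members were called higher (NRT2.1 and NRT2.2), 1 was called lower (NRT1.9) and 7 were not called. An unadjusted p under 0.05 was reached by 5 of the 10, NRT1.1 and NIR1 being the others, and by 5885 of all genes. Over all genes 14.7% were called, 8.25% higher and 6.48% lower, and with 10 members such counts describe the genes named and not the group. The members' median ratio was 0.22 on replicate 1 and -0.60 on replicate 2, while the median of all genes was 0.00 on replicate 1 and 0.01 on replicate 2. Of the 10 members 6 had the same sign on both arrays and 4 had opposite signs, compared with opposite signs in 28.6% of all genes.

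The distance between the arrays was larger for the nitrate genes than for most genes. The median distance between the ratios of the arrays was 0.88 over the members and 0.15 over all genes, and 1.54% of all genes had a distance as large as the members' median. For 9 of the 10 members the ratio on replicate 2 was below that on replicate 1, by 0.18 for NRT1.8 up to 1.18 for NRT1.1, while NRT2.2 was higher on replicate 2 by 1.15. The scanner software's error of a single ratio, converted to log2, was between 0.16 and 0.30 for the members other than NRT1.8, for which it was 0.65 on replicate 1 and 0.35 on replicate 2. Other lists differed in this measure. The median of replicate 2 minus replicate 1 was -0.65 for 10 genes of siroheme and reductant supply and -0.48 for 8 green shoot markers, near 0 for stele markers (-0.06), anion channel and exchanger genes (-0.05) and other NPF genes (0.02), and 0.18 for epidermis and 0.50 for root cap markers. Turned by dye in place of treatment, the Cy5 over Cy3 ratio of the members other than NRT2.2 had a mean between -0.59 and -0.09. Whether this difference belongs to the dye, the array layout, the scanner software or the replicate cannot be told apart.

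**Figure D3:**
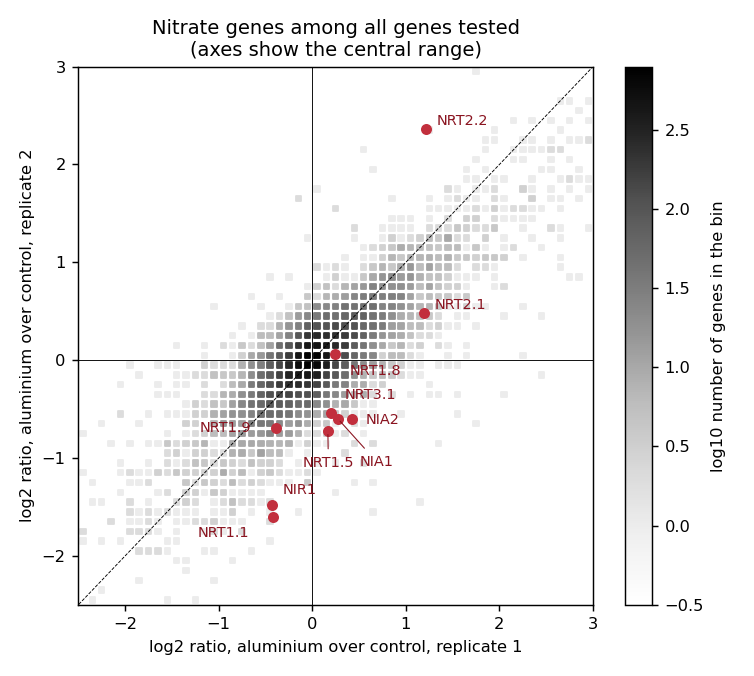
Log2 ratio of aluminium over control on replicate 1 (horizontal) and replicate 2 (vertical) for all genes tested, as grey bins shaded by the log10 number of genes, with the 10 nitrate genes in red. The dashed line marks equal ratios. Of the nitrate genes 9 lie below it and NRT2.2 lies above it.

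The distance between arrays depended on how the dyes were balanced. Of the members, 7 (NRT1.1, NRT2.1, NRT3.1, NRT1.5, NIA1, NIA2 and NIR1) were among the brightest 10% of genes tested, for which loess and plain median centring gave different medians. With median centring, the brightest 10% had a median ratio of -0.27 on replicate 1 and 0.28 on replicate 2. With loess these medians were 0.05 on replicate 1 and 0.00 on replicate 2. For the members, median centring brought the arrays closer, to a median distance of 0.24, while for all genes it moved them apart, to 0.34. NIA1 then had -0.33 on replicate 1 and -0.40 on replicate 2, NRT3.1 had -0.22 and -0.31, and NRT1.5 had -0.21 and -0.42, in the same order of replicates. NIA2 still had opposite signs (0.04 and -0.33), and the ratios of NRT1.8 moved apart to opposite signs (0.79 and -0.26). NRT1.1 (-0.90 and -1.37) and NIR1 (-1.01 and -1.28) were called lower in that setting, with an adjusted p of 0.000156 for NRT1.1 and 0.000127 for NIR1. In all 1 member was called higher (NRT2.2) and 2 lower with median centring, where 7.68% of all genes were called, 4.63% higher and 3.05% lower. NRT2.1 (0.60 and 0.67, adjusted p = 0.107) and NRT1.9 (-0.60 and -0.41, adjusted p = 0.293) were not called. In that fit limma estimated an infinite prior, so every gene shared 1 spread and the distance between a gene's own arrays had no weight. NRT2.2 had 1.42 on replicate 1 and 2.39 on replicate 2 and was called in both settings.

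**Figure D4:**
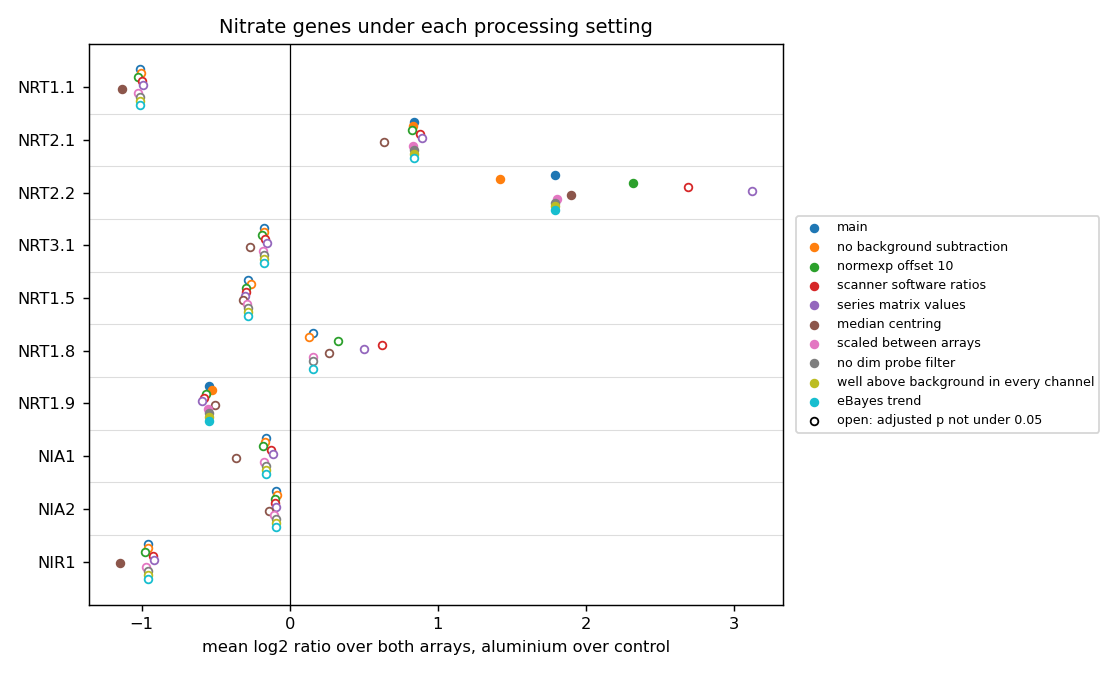
Mean log2 ratio of aluminium over control over both arrays for each nitrate gene under the 10 processing settings, filled where limma's adjusted p was under 0.05. No member changed sign, NRT2.2 spread from 1.42 to 3.12, and NRT1.1 and NIR1 were filled with median centring only.

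The genes around the members were taken from 7 lists with 89 loci, of which 75 were tested. Together 2 rose and 22 fell, where 8.25% of all genes rose and 6.48% fell. The lists were chosen with earlier results of these data known, so these counts are not an independent result about the pathway. A negative ratio on both arrays was seen in 48 of the 75 and in 6774 of all 19194 genes. Their median ratio was -0.20, compared with 0.00 for all genes. Among the other NRT2 and NRT3 genes only NRT2.6 and NRT2.7 could be tested, and limma called 0 of these, with 0 at an unadjusted p under 0.05. Their ratios were -0.07 ± 0.13 for NRT2.6 and -0.03 ± 0.028 for NRT2.7. NRT2.3, NRT2.4 and NRT2.5 were too dim on at least 1 array.

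Of 21 other genes of the NPF family, to which NRT1.1, NRT1.5, NRT1.8 and NRT1.9 belong, 0 rose and 3 fell, with a median of -0.14. The shares over all genes were 8.25% higher and 6.48% lower. GTR2, a glucosinolate transporter gene, had -1.26 ± 0.29. NRT1.12 (AT3G16180), a paralogue that moves nitrate in the shoot phloem, had -0.97 ± 0.23, and AT3G45710, annotated on the array as a proton-dependent oligopeptide transporter, had -0.44 ± 0.091. Of 9 anion channel and exchanger genes 3 fell and 0 rose. CLC-A, which stores nitrate in the vacuole, had -0.91 ± 0.19, its close relative CLC-B had -1.17 ± 0.52, and SLAH1, an anion channel subunit gene of the root stele, had -0.80 ± 0.48.

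Genes that supply cofactors and electrons for reduction formed a pair of lists, to be read beside the 8.25% of all genes that rose and the 6.48% that fell. Of 10 genes for siroheme, the cofactor of nitrite reductase, and for reductant, 5 fell and 1 rose. Their median was -0.48 on replicate 1, below that of all genes, and -1.17 on replicate 2. The glucose-6-phosphate dehydrogenase gene G6PD2, whose enzyme makes NADPH, had -0.85 ± 0.12. Of the 6-phosphogluconate dehydrogenase genes of the same pathway, AT5G41670 had -0.95 ± 0.34 and AT3G02360 rose by 0.74 ± 0.068. UPM1, which makes a precursor of siroheme and was chosen after its value was seen, had -1.15 ± 0.49. Of 7 genes for the molybdenum cofactor of nitrate reductase and for molybdate transport 2 fell, MOT2 at -0.45 ± 0.10 and CNX3 at -0.42 ± 0.079, both close to the threshold (limma adjusted p = 0.0437 for MOT2 and 0.0490 for CNX3).

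Of 17 nitrate signalling genes 1 rose and 2 fell, with a median of -0.03, where 14.7% of all genes were called in either direction. The calcium-dependent kinase gene CDPK1 (CPK10), which with related kinases acts on the nitrate-responsive factor NLP7, rose by 1.07 ± 0.24. TGA1, a bZIP factor that acts on NRT2.1 and NRT2.2, fell by 0.63 ± 0.19, and the calcium sensor gene CBL9, which works with CIPK23 on NRT1.1, fell by 0.42 ± 0.048. Neither TGA1 nor CBL9 was called with a normexp offset of 10, median centring, the scanner software's ratios or the series matrix values. NLP7 itself had 0.09 ± 0.12 and was not called. Of 9 genes listed as repressors of nitrate uptake and assimilation genes, 7 fell, and all 9 were below 0 on both arrays, with a median of -1.35. Over all genes 6.48% were called lower, and 6774 of 19194 were below 0 on both arrays. The repressor list, too, was chosen with earlier results of these data known. HRS1, which represses NRT2.1, had -2.42 ± 0.18. BT1, whose close relative BT2 represses NRT2.1, had -3.26 ± 0.47, and AT3G25790, annotated on the array as a myb family factor, had -1.88 ± 0.16. With the scanner software's ratios 3 of the 9 were called, and with the series matrix values, with which limma called 0 genes of the whole array, none was. The others of the 9, AT1G25550 (-0.20 ± 0.047) and AT1G68670 (-0.23 ± 0.32), were not called, and with median centring 2 of the 9 had opposite signs on the arrays. No test of a link between the repressors and NRT2.1 or NRT2.2 was made.

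**Figure D5:**
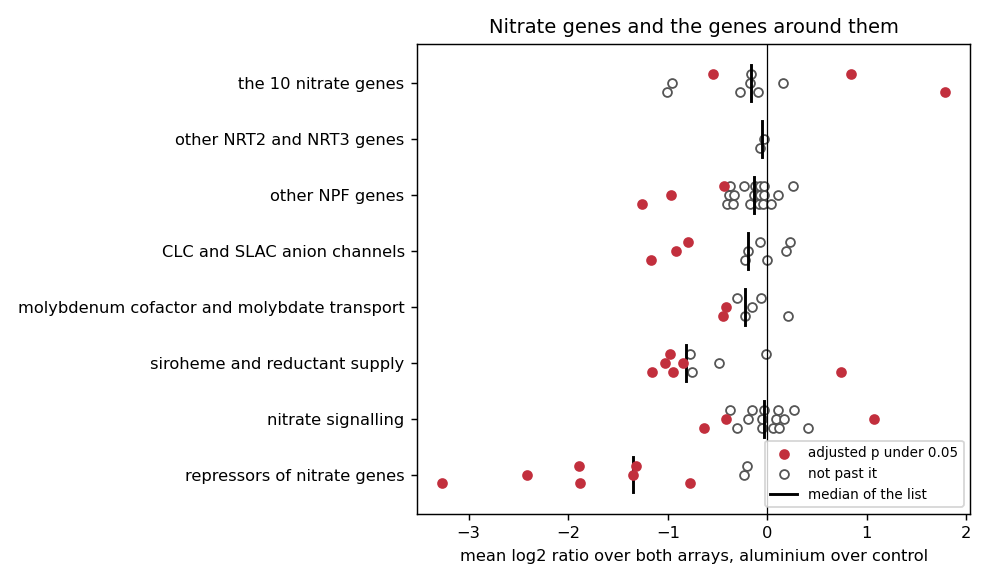
Mean log2 ratio of aluminium over control for the 10 nitrate genes and for the tested genes of the 7 lists around them, 1 point per gene, red at an adjusted p under 0.05, with the median of each list as a black bar. The repressor list lies furthest to the left with a median of -1.35, and the 2 highest points of the top line are NRT2.2 and NRT2.1.

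Markers of root layers also moved, and their part in the results on nitrate genes was not tested. For comparison 6.48% of all genes were called lower, and the marker lists are short. Of 5 epidermis and root hair markers 4 fell, and their summed signal was 2810 in aluminium and 4760 in control RNA on replicate 1, and 1180 in aluminium and 2030 in control RNA on replicate 2. Of 4 endodermis markers 2 fell, with a sum of 2720 in aluminium and 7500 in control RNA on replicate 1, and 1840 in aluminium and 5320 in control RNA on replicate 2. The fall of this sum came mostly from CASP1 (-1.74 ± 0.081) and ESB1 (-3.11 ± 0.16). SCR (-0.27 ± 0.20) and MYB36 (-0.23 ± 0.19) were not called, so the sum does not describe the whole list. In the stele, where NRT1.5, NRT1.8 and NRT1.9 act, 2 of 10 markers fell, with a sum of 8370 in aluminium and 10200 in control RNA on replicate 1, and 5780 in aluminium and 7470 in control RNA on replicate 2. Those called were SKOR (-2.30 ± 0.093) and SHR (-0.49 ± 0.075). The phloem markers SUC2 (-0.04 ± 0.31) and APL (-0.15 ± 0.060), for the tissue of NRT1.9, were not called. By limma 0 of 2 root cap markers were called, with both at an unadjusted p under 0.05 (medians -0.76 on replicate 1 and -0.27 on replicate 2), and the 1 cortex marker tested, at -0.25, was not called. No marker on the array was below background in all 4 channels.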

How the data were processed

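The deposited scanner files hold the mean and background intensity of each spot before normalization. Per the file headers they were written by Agilent Feature Extraction 8.1.1.1 (replicate 1) and 7.1.1 (replicate 2), whereas the submitters' processing notes name 9.5.1.1. The deposited log10 ratio of the scanner software is Cy5 over Cy3. The authors' series matrix holds log2 values of aluminium over control for 20346 probes (Pearson r across probes with the scanner ratios 0.998 for replicate 1 and 0.887 for replicate 2; column medians -0.0103 and -0.0113), and the normalization and centring behind them are not given in the sources used here.

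With limma 3.58.1 in R 4.3.3, mean signals were corrected by normexp (offset 50), each array was loess-normalized with weight 0 for control spots, and ratios were turned to aluminium over control by the labelled dyes. Of 21500 probes, 108 with outlier marks, 1151 others without a channel well above background on each array, and 1047 without a locus shared by both layouts were left out. Ratios were tested against 0 with lmFit and eBayes, in two-sided form. Each gene had 1 residual degree of freedom, and the estimated prior added 4.06. The test combines each gene's own spread between these 2 arrays with a prior spread estimated over all genes. The number of arrays limits the precision. The intervals printed with the ratios use this combined spread and are not adjusted for the number of genes. They can therefore exclude 0 for a gene that was not called, as for NRT1.1 and NIR1. All 10 members and, per list, up to 3 called genes with the smallest p were named. UPM1, NLP7, SUC2, APL, SCR, MYB36, NRT2.6 and NRT2.7 were added after their values were seen. AT1G25550 and AT1G68670, the repressor genes not called, were also named outside this rule. Members and lists were chosen with earlier results of these data known. Symbols come from RefSeq TAIR10.1 (19118 tested genes matched). Planned promoter and protein comparisons were not analysed here.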

Additional observations from a re-analysis of the deposited data

How the results depend on the processing

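In all, 9 settings were tried beside that of the report, and no member's mean ratio changed sign in any of them. The count of genes called was 1048 higher and 719 lower with a normexp offset of 10, 889 higher and 586 lower with median centring, 170 higher and 118 lower with the scanner software's ratios, and 0 in either direction by limma with the series matrix values, where 5073 genes had an unadjusted p under 0.05. Of the members, 1 was called higher and 0 lower with an offset of 10, 1 higher and 2 lower with median centring, 1 higher and 1 lower with a trended prior, and 0 with the scanner software's ratios (4 at an unadjusted p under 0.05) or the series matrix values (3 at an unadjusted p under 0.05). NRT2.1 lost its call in 5 settings (adjusted p between 0.0365 and 0.132 over all 10), NRT1.9 in 4 (0.0319 to 0.293) and NRT2.2 in 2 (2.05e-12 to 0.0973). The cause was not tested. The list counts moved by over 1.5 times in 23 of 126 cases, mostly to 0 with the scanner software's ratios and the series matrix values, where 3 and 0 of the 9 repressors were called. With an offset of 10 and with median centring, TGA1, CBL9, MOT2 and CNX3 lost their calls, as did MOT2 and CNX3 without background subtraction. The median of the members was -0.60 without replicate 1 and 0.22 without replicate 2, opposite in sign, and leaving 1 out leaves no test for any gene. No paired analysis was possible because there is 1 group of arrays and no further pairing to add. Each array already pairs an aluminium with a control RNA, and the reported test is on those paired ratios.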
